A study of Danio rerio with 18 samples.

Results

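Zebrafish larvae that lack Myd88 were compared with and without an intestinal microbiota. The comparison held the 6 samples labelled as homozygous myd88 mutants, of 18 samples in the series: 3 pools of conventionalized (CONVD) mutant larvae and 3 pools of germ-free (GF) mutant larvae. All 6 pools carried the same mutation (myd88-/-, allele hu3568, in a line outcrossed to wild type ABTL fish), and each pool held 15 whole larvae at 5 days post fertilization. Embryos of both groups were surface sterilized. The CONVD larvae received at day 3 diluted egg water in which non-sterile larvae of a wild type ABTL cross had been kept, and the GF larvae stayed sterile. Wild type (WT) CONVD and WT GF larvae, 3 pools each of the same age and handling, gave values to set beside those of the mutants. The study states that its mutant and WT groups did not come from sibling crosses. Genotype and parentage therefore cannot be told apart wherever the genotypes are compared.

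Myd88 is the adaptor through which most Toll-like receptors (TLRs) and the interleukin receptors of the same superfamily signal, and its downstream arms end in NF-κB, in AP1 transcription factors of the fos and jun families, and in C/EBP factors. The larval gut epithelium takes up peptides, amino acids and lipids through brush border transporters, and both gut and liver package lipid into particles built on apolipoprotein B. Liver and gut also hold the cytochrome P450 enzymes and the sulfotransferases that modify bile acids, steroids and foreign compounds. The study asked how much of the larval response to microbes needs Myd88, and the mutant comparison shows what a larva without the adaptor did when microbes were added.

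The libraries were deep and even. Total counts ran between 12236848 and 18214050 in CONVD mutants and between 13542231 and 16277918 in GF mutants, over 31388 annotated genes. The first principal component carried 25.2% of the variance and parted the 3 CONVD from the 3 GF libraries. GF pool 3 lay farthest out on the second component (22.3% of the variance), at -25.2 beside scores of -3.06 to 16.8 in the other libraries, and without it 211 genes were called. The common biological coefficient of variation was 4.09% in the mutant libraries and 7.56% in the WT libraries. The myd88 transcript itself is still made in the mutants and its level does not check the genotype: it had 71, 61 and 56 counts in CONVD mutants and 49, 48 and 51 counts in GF mutants. Defining markers of liver, gut, pancreas, muscle, eye, skin, brain, neutrophils and macrophages were all detected. Of the erythrocyte markers, the globin hbae3 had 11980 counts over the CONVD mutants and 11670 over the GF mutants, and alas2 and cahz were also detected. The globin hbbe3 alone was near 0, with 3 counts over the CONVD mutants and 2 over the GF mutants.

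Few genes differed between CONVD and GF mutants, by small amounts and mostly downward. Of 22861 genes tested, 143 were called (0.626%), which here means a Benjamini-Hochberg adjusted p under 0.05 in edgeR's quasi-likelihood test and a fold change of at least 1.3. Among them, 38 were higher in CONVD mutants (0.166% of the genes tested) and 105 were lower (0.459%). The median fold was 1.49 for the rises and 1.38 for the falls, and 79 of the 105 falls were under 1.5-fold. Only 4 rises and 7 falls reached 2-fold. In 141 of the 143 genes the 3 CONVD libraries lay wholly above or wholly below the 3 GF libraries, against 16.5% of all genes tested. The exceptions were srsf10b and abcb11a. The calls were picked by a test on these same 6 libraries, so this separation is not separate support for them. Because 5 pairs of called genes had nearly the same counts in every library (within 6%), the calls amount to 138 if each pair is counted once. Fold changes are given as log2 of CONVD over GF with the standard error, levels are CPM, the counts scaled to a common library size, and adjusted p-values come from the edgeR test unless another tool is named.

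The size of this list varied with the libraries and the tool used. When WT pools joined the fit, 44 genes were called from the 12 GF and CONVD libraries of both genotypes and 18 from all 18 libraries, of which 42 and 17 were among the 143. DESeq2 on the same 6 libraries called 97. All 143 genes kept their direction in every one of these fits. The fits share the same mutant libraries, so the kept direction is not separate support for the calls. Leaving out 1 library at a time, 50 of the 143 genes were called in all 6 fits (35 lower and 15 higher in CONVD mutants), and the counts of calls ran between 97 and 211. The count of rises was 24 without GF pool 1 and 75 without GF pool 3, and the count of falls was 63 without CONVD pool 1.

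Several genes of the absorbing gut epithelium were lower in the CONVD mutants. Of 45 tested members of a list of enterocyte absorption and brush border genes, 8 were called lower and none higher, a share of 17.8% beside the 0.459% of all genes called lower. Their median log2 fold change was -0.27, against 0.00 for all genes tested, and in 30 of the 45 all CONVD libraries lay below all GF libraries, as in 9.04% of all genes tested. A further 9 members passed the adjusted p but fell by less than 1.3-fold. The summed level of the list was 3370 to 3660 CPM in CONVD mutants and 4060 to 4290 CPM in GF mutants. This list and those below were chosen with earlier results of these data known. Their shares beside all genes tested describe the lists and are not separate support for a change.

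The peptide transporter slc15a1b, which carries dipeptides and tripeptides across the brush border, had 45.9, 48.8 and 46.3 CPM in CONVD mutants, against 70.7, 75.2 and 66.1 CPM in GF mutants. The groups did not come near each other, and the log2 fold change was -0.59 ± 0.053 (adjusted p = 5.7e-08). Its paralog slc15a1a fell less (-0.39, adjusted p = 0.0043). The neutral amino acid transporter slc6a19a.2 had 43.8, 46.9 and 47.8 CPM in CONVD mutants, against 61.3, 71.0 and 61.9 CPM in GF mutants (-0.49 ± 0.058, adjusted p = 2.6e-06), and the neighboring copy slc6a19a.1 fell by 0.40 on the log2 scale. The membrane protein gene tm4sf4 fell by 0.44 (adjusted p = 6.1e-07), the scavenger receptor cd36, which binds fatty acids, by 0.39 (adjusted p = 1.0e-05), and the chitinase gene chia.3 by 0.42 (adjusted p = 1.4e-04).

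The calls of slc15a1b, slc6a19a.2 and tm4sf4 held in all 6 fits that left out a library. The list had 4 calls without CONVD pool 1 and 6 to 10 over the other omissions. The fit on 12 libraries called 2 members and the fit on 18 libraries called none, with list medians of -0.26 in both. The genes cubn and amn of the same list, whose products form a receptor complex for protein uptake, had log2 fold changes of 0.06 and 0.04 and overlapping groups, and the sugar transporter slc5a1 had -0.30 with an adjusted p of 0.14.

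Several genes of the same kind that were in no list were also called, and apart from MGAM2 they are named here after their values were seen. The disaccharidase gene lct had 18.5, 21.6 and 15.9 CPM in CONVD mutants, against 26.8, 26.5 and 27.9 CPM in GF mutants (-0.52, adjusted p = 2.8e-04). The maltase-glucoamylase gene MGAM2 had 106.1, 125.1 and 117.1 CPM in CONVD mutants, against 196.4, 223.2 and 176.3 CPM in GF mutants (-0.78 ± 0.11, adjusted p = 0.044), and lost its call without GF pool 1 (adjusted p = 0.19) and without CONVD pool 3 (adjusted p = 0.16). The nucleoside transporter slc28a1 fell by 0.57 (adjusted p = 8.2e-05), the ceramidase gene asah2 by 0.47 (adjusted p = 7.8e-05), the diamine oxidase gene aoc1 by 0.42 (adjusted p = 6.0e-05), and a1cf, which encodes the mammalian cofactor of apolipoprotein B mRNA editing, by 0.47 (adjusted p = 3.1e-06).

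**Figure D1:**
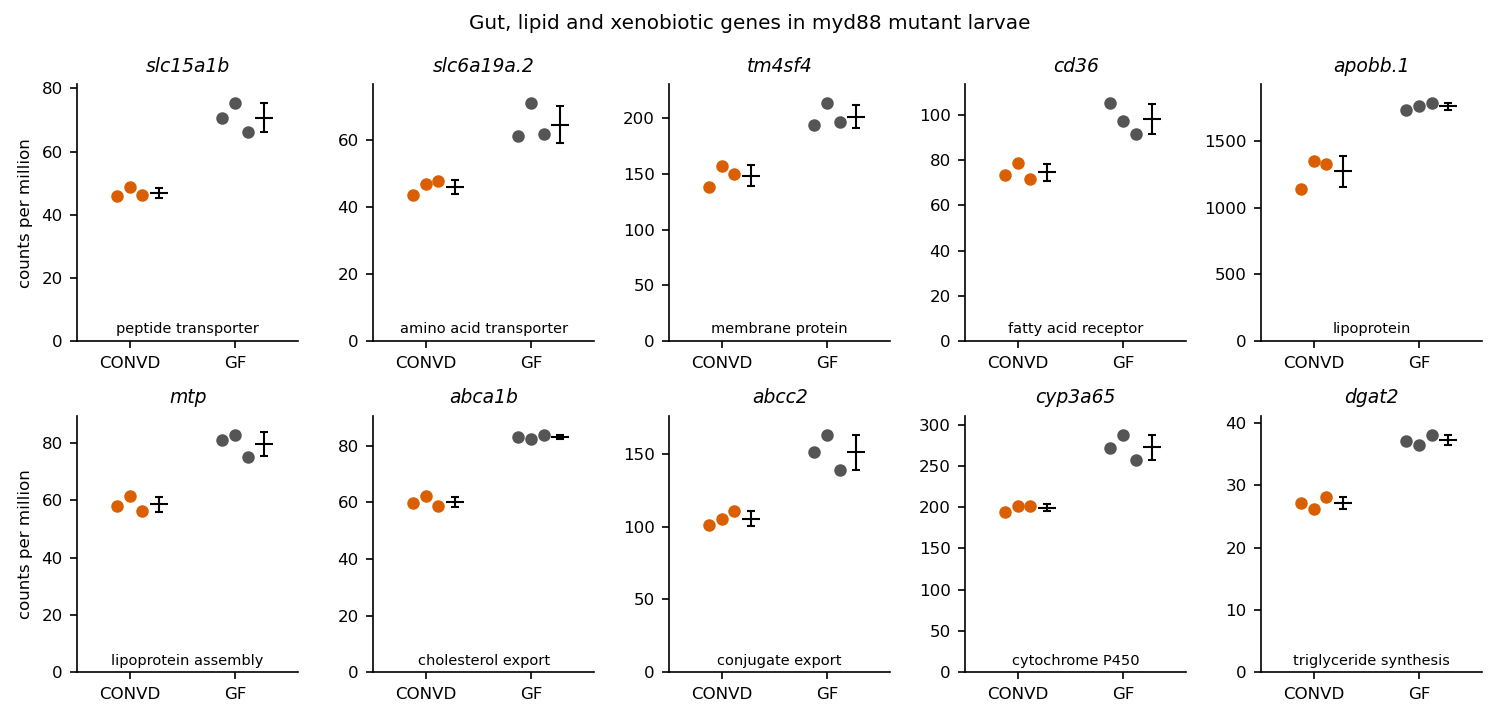
Levels of 10 gut, lipid and xenobiotic genes in each myd88 mutant library, in CPM on axes that start at 0, with CONVD pools (orange) left of GF pools (gray). Bars show the mean and SD of 3 pools. In every panel the 3 CONVD pools lie below the 3 GF pools, as for slc15a1b with 45.9 to 48.8 CPM in CONVD mutants and 66.1 to 75.2 CPM in GF mutants.

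Some genes of lipoprotein assembly and cholesterol export were lower in the CONVD mutants as well. Of 34 tested members of the lipoprotein list, 6 were called lower (17.6%) and none higher, and the median log2 fold change was -0.19. All CONVD libraries were below all GF libraries in 18 of the 34 and above them in 3, beside 9.04% and 7.44% of all genes tested. The microsomal triglyceride transfer protein gene (mtp in the files), which loads lipid onto apolipoprotein B, had 58.0, 61.5 and 56.5 CPM in CONVD mutants, against 81.0, 82.8 and 75.1 CPM in GF mutants (-0.44 ± 0.050, adjusted p = 1.3e-06). The cholesterol exporter abca1b had 59.8, 62.1 and 58.7 CPM in CONVD mutants, against 83.1, 82.5 and 83.8 CPM in GF mutants (-0.46 ± 0.046, adjusted p = 2.2e-07). Both calls held with each library left out.

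The apolipoprotein B gene apobb.1 had 1142, 1353 and 1331 CPM in CONVD mutants, against 1732, 1767 and 1782 CPM in GF mutants (-0.47 ± 0.055, adjusted p = 8.8e-04). Its counts differed by at most 1.84% from those of its neighbor hpcal1 in each library, so the reads of these genes could not be assigned to one or the other. Without GF pool 3 the adjusted p of apobb.1 was 0.12. A second apolipoprotein B gene, apobb.2, was called lower as well, and in 4 of the 6 fits that left out a library. The chylomicron apolipoprotein genes apoa4b.2 and apoa4b.1 had log2 fold changes of -0.39 (adjusted p = 3.5e-07) and -0.41 (adjusted p = 0.034). With libraries left out, apoa4b.2 was called in 4 of 6 fits and apoa4b.1 in 1, at adjusted p-values up to 0.15. The apolipoprotein E genes apoea (-0.36) and apoeb (-0.27) and the lipoprotein lipase activator apoc2 (-0.26) passed the adjusted p but not the fold threshold, as did 9 members in all. The lipase inhibitor gene angptl4, which microbes are known to repress in the gut, had 83.9, 78.3 and 80.3 CPM in CONVD mutants, against 83.8, 87.9 and 87.6 CPM in GF mutants, with groups that overlapped (-0.09 ± 0.045, adjusted p = 0.42). Without CONVD pool 1 the list had 3 calls, and neither fit that included WT libraries called any member.

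Synthesis and storage of lipid showed fewer calls. Of 40 tested genes of fatty acid and triglyceride synthesis, 2 were called lower (5%) with a list median of -0.07. They were dgat2, which makes the last step to triglyceride, with 27.2, 26.1 and 28.1 CPM in CONVD mutants and 37.0, 36.4 and 38.0 CPM in GF mutants (-0.46 ± 0.063, adjusted p = 3.2e-05), and the acyl-CoA synthetase gene acsl5 (-0.44 ± 0.053, adjusted p = 6.8e-06). Both calls held with each library left out. The synthase genes fasn (-0.00) and scd (-0.26, adjusted p = 0.73) were not called, and neither was any of 34 sterol synthesis and uptake genes (median -0.12, with 30 below 0) or of 38 fatty acid oxidation genes (median -0.02).

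Among 30 tested genes of bile acid synthesis and transport, 4 were called lower (13.3%) and none higher, with a median of -0.14. The canalicular exporter gene abcc2, which moves conjugates out of hepatocytes and enterocytes, had 100.9, 105.0 and 110.7 CPM in CONVD mutants, against 151.4, 162.8 and 138.5 CPM in GF mutants (-0.52 ± 0.050, adjusted p = 6.1e-07). The hydroxylase gene cyp8b1, which sets the kind of bile acid made, had 20.5, 19.995 and 17.8 CPM in CONVD mutants, against 27.8, 24.9 and 27.3 CPM in GF mutants (-0.45 ± 0.076, adjusted p = 4.8e-04). The bile acid feedback repressor nr0b2a had 11.101, 11.3 and 14.7 CPM in CONVD mutants, against 17.1, 18.21 and 18.1 CPM in GF mutants (-0.54 ± 0.098, adjusted p = 9.4e-04). These 3 calls held with each library left out. The bile salt pump gene abcb11a was called with overlapping groups (-0.47, adjusted p = 0.046) and lost the call in 5 of the 6 such fits. The genes for the rate-limiting hydroxylase cyp7a1a (-0.28, adjusted p = 0.16), the bile acid receptor nr1h4 (-0.25, adjusted p = 0.49) and the gut hormone fgf19 (-0.01) were not called.

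Some enzymes that modify foreign compounds and steroids also fell. Of 48 tested cytochrome P450 genes of families 2, 3 and 4, 7 were called lower (14.6%) and none higher (median -0.22). The gut and liver enzyme gene cyp3a65 had 194.2, 201.4 and 201.9 CPM in CONVD mutants, against 271.9, 287.3 and 257.4 CPM in GF mutants (-0.45 ± 0.041, adjusted p = 5.7e-08). The gene cyp2n13 had 48.9, 49.7 and 50.3 CPM in CONVD mutants, against 67.7, 66.3 and 66.2 CPM in GF mutants (-0.43 ± 0.048, adjusted p = 1.2e-06). The neighboring genes cyp2aa8 and cyp2aa9 had log2 fold changes of -1.02 and -0.45, and cyp2aa8 was low throughout, with 2.53, 2.35 and 3.58 CPM in CONVD mutants and 6.33, 5.00 and 5.45 CPM in GF mutants. The family members of one cluster are similar in sequence, so short reads may be shared between them. The P450 list had 4 calls without CONVD pool 1, 4 in the fit on 12 libraries and 2 (cyp2n13 and cyp2aa9) in the fit on 18.

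Of 61 tested conjugation and export genes, 6 were called lower (9.84%) and none higher (median -0.14), and all 6 were sulfotransferases. The gene sult3st2 had 13.4, 15.5 and 13.0 CPM in CONVD mutants, against 20.5, 20.4 and 19.5 CPM in GF mutants (-0.52 ± 0.086, adjusted p = 2.9e-04), and its call held with each library left out. The others were sult3st3, 2 genes named sult3st1, sult1st2 and sult1st3, with log2 fold changes between -0.49 and -0.38. The glucuronosyltransferase gene ugt2b1 (-0.36, adjusted p = 1.5e-05) passed the p but not the fold threshold. None of 15 aryl hydrocarbon receptor target genes was called, and their median was above 0 (0.05, with 7 below 0). The conjugation list had 3 calls without GF pool 1 or without CONVD pool 1 and 11 without GF pool 3. It had 1 call in the fit on 12 libraries and none in the fit on 18.

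Over these 6 lists together, 257 different genes were tested, 33 were called lower and none was called higher. These 33 make up 31.4% of the 105 falls, and 14 of them were called in all 6 fits that left out a library. The median log2 fold change of the 257 was -0.19, and 201 were below 0. These 6 lists were grouped with their calls known, and they make up 1.12% of the genes tested. The absence of rises among them is in part a product of that choice. The retinoid list was left out, with 1 of 40 tested genes called higher (LRAT) and none lower. So was the liver serum protein list, with 1 of 46 called lower and none higher. With the lists of sterol synthesis, fatty acid oxidation and aryl hydrocarbon receptor targets, which held none, the 33 falls stood among 338 genes (9.76%), with a median of -0.13. In the plot of list members, the fatty acid and triglyceride list lies closest to 0 of the 6 in the mutants, with a median of -0.07 beside -0.10 in WT larvae.

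**Figure D2:**
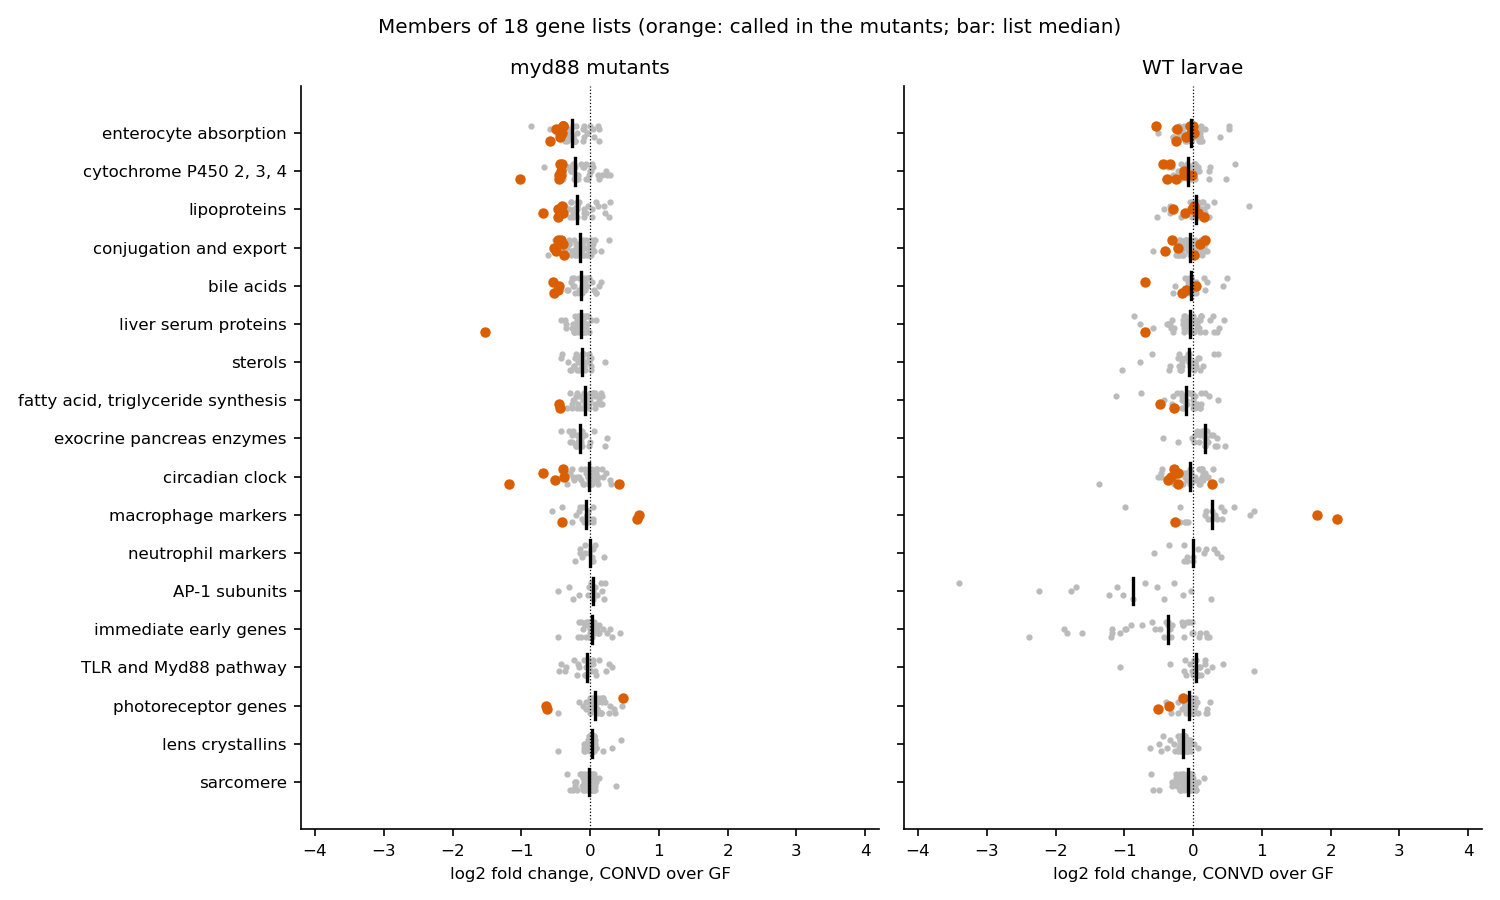
Log2 fold change (CONVD over GF) of every tested member of 18 gene lists, in myd88 mutants (left) and in WT larvae (right). Gray points are members, orange points are members called in the mutants, and black bars are list medians. The enterocyte list has a median of -0.27 in mutants and -0.04 in WT larvae, and the AP1 list has 0.04 in mutants and -0.88 in WT larvae.

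Single markers of gut epithelium and liver also had values below 0. The gut markers vil1 (-0.29, adjusted p = 2.3e-04), fabp2 (-0.23, adjusted p = 0.021) and cdx1b (-0.48, adjusted p = 0.093) and the liver markers apoa2 (-0.20, adjusted p = 0.0079), fabp10a (-0.18, adjusted p = 0.019), serpina1 (-0.15, adjusted p = 0.047) and tfa (-0.43, adjusted p = 0.57) were not called. Among 46 tested liver serum protein genes, 44 were below 0 with a median of -0.13. The summed level of these genes was 3480 to 3930 CPM in CONVD mutants and 4050 to 4160 CPM in GF mutants. The 1 called member was the heme scavenger gene hpx, with 0.824, 0.635 and 1.06 CPM in CONVD mutants and 2.61, 2.63 and 1.84 CPM in GF mutants (-1.52 ± 0.27, adjusted p = 9.1e-04). None of 27 exocrine pancreas genes was called (median -0.15). Markers of muscle, skin and brain stayed between -0.04 and 0.06. In whole larvae a smaller share of gut or liver cells and less RNA per cell cannot be told apart, and the part of tissue share in the falls was not tested.

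The circadian clock was the other group with several called genes. Of 49 tested clock genes, 5 were called lower (10.2%) and 1 higher, beside 0.459% and 0.166% of all genes tested. At the adjusted p alone 11 were lower and 3 higher, beside 334 and 123 of the 22861 genes tested. The list median was -0.01, so the group did not shift as a body. The largest fall was in nr1d4b, a fish member of the Rev-erb family of clock repressors, with 6.98, 9.33 and 10.6 CPM in CONVD mutants and 19.4, 20.3 and 20.3 CPM in GF mutants (-1.18 ± 0.11, adjusted p = 7.7e-08). Its paralog nr1d4a fell as well (-0.69, adjusted p = 0.030), but kept its call in only 1 of the 6 fits that left out a library, where its adjusted p ranged up to 0.19. The unnamed locus si:ch73-1m18.2 had counts within 5.44% of those of nr1d4b and nearly the same fold change (-1.17), so the pair may be 1 signal. Counts over all calls hold both genes, except where each pair is counted once.

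The output gene dbpb, a PAR bZIP factor, had 78.7, 86.7 and 90.2 CPM in CONVD mutants, against 129.4, 115.4 and 119.7 CPM in GF mutants (-0.52 ± 0.051, adjusted p = 3.5e-07). The period gene per1a had 99.1, 98.1 and 99.0 CPM in CONVD mutants, against 127.7, 129.7 and 128.3 CPM in GF mutants (-0.38 ± 0.040, adjusted p = 5.2e-07). That change sat at the fold threshold and fell just under it with RLE size factors and without GF pool 2 or CONVD pool 2. The repressor bhlhe41 had 81.4, 91.2 and 88.8 CPM in CONVD mutants, against 114.4, 113.5 and 113.8 CPM in GF mutants (-0.39 ± 0.045, adjusted p = 1.8e-06), and was under the fold threshold without CONVD pool 1 (-0.34). Rev-erb alpha, nr1d1, had 176.9, 185.4 and 178.9 CPM in CONVD mutants, against 235.2, 227.0 and 230.2 CPM in GF mutants. Its change (-0.36 ± 0.038, adjusted p = 5.4e-07) passed the p but not the fold threshold. In WT larvae nr1d1 was called lower (-0.46, adjusted p = 0.011), and the difference between genotypes was not called (adjusted p = 0.86).

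The single rise was in cry5, a light-responsive photolyase of the cryptochrome family, with 54.1, 54.4 and 53.5 CPM in CONVD mutants and 39.4, 42.3 and 39.6 CPM in GF mutants (0.42 ± 0.053, adjusted p = 9.9e-06). The cryptochrome genes cry1ba (0.28, adjusted p = 1.4e-05) and cry1bb (0.31, adjusted p = 2.7e-04) were higher and cry2 (-0.29, adjusted p = 1.2e-04) was lower, all under the fold threshold. The activators clocka (0.11, adjusted p = 0.79) and arntl1a (-0.07, adjusted p = 0.84) were not called. The clock list held up better than the gut lists when WT libraries joined the fit: nr1d4b, dbpb and cry5 were still called with all 18 libraries, and the fit on 12 called 4 falls and the 1 rise. All 6 called clock genes had the same sign in WT larvae, where the clock list of 49 tested genes held 3 called lower and 1 called higher. Larvae were processed at midday, some hours after first light, and the time of each pool is not given in the sources used here, so the part of sampling time in these changes was not tested.

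**Figure D3:**
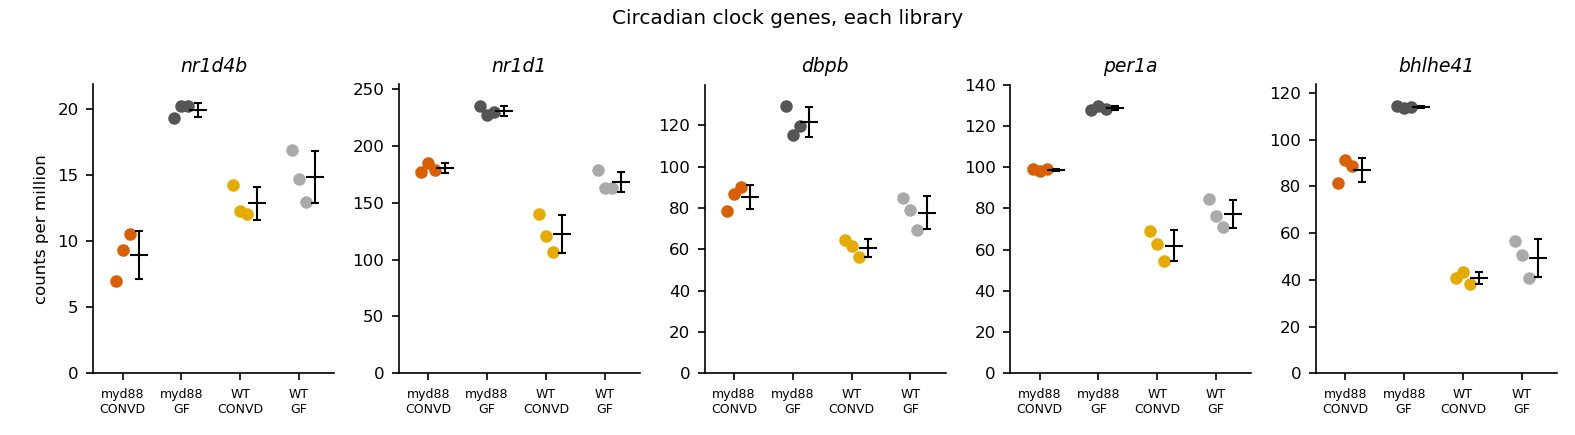
Levels of 5 clock genes in each library, in CPM on axes that start at 0, for CONVD and GF myd88 mutants and CONVD and GF WT larvae. Bars show the mean and SD of 3 pools, and each genotype was scaled on its own. For per1a the CONVD mutants lie at 98.1 to 99.1 CPM and the GF mutants at 127.7 to 129.7 CPM.

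The rises included genes that WT larvae raised far more. The unnamed gene si:dkey-239b22.1 had 11.8, 19.7 and 14.3 CPM in CONVD mutants, against 7.51, 7.18 and 8.10 CPM in GF mutants (1.00 ± 0.19, adjusted p = 0.023). In WT larvae it had 71.0, 80.0 and 85.7 CPM when CONVD and 6.94, 5.95 and 7.79 CPM when GF (3.51). The gene zgc:153932 (ENSDARG00000052779), from the list of mucosal glycoproteins, had 7.58, 11.8 and 8.39 CPM in CONVD mutants, against 6.27, 5.32 and 4.94 CPM in GF mutants (0.74 ± 0.16, adjusted p = 0.0075), and its WT response was 3.84. A second gene of the same name (ENSDARG00000074642) changed by 0.64 in mutants and by 2.04 in WT larvae, and the copies may share reads. The rise in mutants of both zgc:153932 genes and of si:dkey-239b22.1 was lost with some libraries left out. Without CONVD pool 2 the first zgc:153932 gene had an adjusted p of 0.11, and si:dkey-239b22.1 had adjusted p-values between 0.088 and 0.23 in the 4 fits that lost it, which left out any GF pool or CONVD pool 3.

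Among immune genes, the perforin family gene mpeg1.2, a relative of the macrophage marker mpeg1.1, had 6.93, 8.13 and 8.06 CPM in CONVD mutants, against 5.28, 4.62 and 4.35 CPM in GF mutants (0.68 ± 0.14, adjusted p = 0.0038), and its call held with each library left out. The itaconate-producing enzyme gene irg1l had 4.95, 4.38 and 5.05 CPM in CONVD mutants, against 3.29, 2.82 and 2.65 CPM in GF mutants (0.70 ± 0.17, adjusted p = 0.018), and lost its call in 4 of the 6 fits, at adjusted p-values up to 0.11. The macrophage markers mpeg1.1 (0.05, adjusted p = 0.96), marco (0.04) and csf1ra (-0.07) were not called. Of 22 macrophage markers 2 were called higher and 1 lower, beside 0.166% and 0.459% of all genes tested. The fall was in the amino acid transporter slc7a7 (-0.40, adjusted p = 9.9e-04), which gut epithelium also expresses. Of the 22, 17 were below 0 (median -0.06), and the list summed to 151 to 159 CPM in CONVD mutants and 163 to 172 CPM in GF mutants. Much of that gap lay in slc7a7, with 27.6, 30.3 and 28.0 CPM in CONVD mutants and 39.7, 40.8 and 32.9 CPM in GF mutants. The lower sum therefore cannot be read as fewer macrophages. None of 14 neutrophil markers was called, among them mpx (-0.15), lyz (0.21) and npsn (0.04).

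The unnamed gene si:ch211-226h7.3 rose in the mutants with 26.5, 35.9 and 28.4 CPM in CONVD mutants, against 20.3, 18.9 and 16.6 CPM in GF mutants (0.70 ± 0.11, adjusted p = 0.0029), and in all 6 fits that left out a library. The locus si:dkey-204a24.10, named urgcp in current annotation, had the largest rise among the called genes above the level set for naming (mean log2 CPM of 1), with 6.43, 9.20 and 7.17 CPM in CONVD mutants and 3.73, 3.40 and 3.68 CPM in GF mutants (1.07 ± 0.16, adjusted p = 7.8e-05). It also rose in WT larvae (1.74, adjusted p = 5.4e-05), and the difference between genotypes was not called (adjusted p = 0.42). The low-count locus BX072532.1 had 2.25, 3.17 and 3.095 CPM in CONVD mutants, against 0.993, 0.641 and 0.737 CPM in GF mutants (1.81 ± 0.27, adjusted p = 7.8e-05).

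Other rises were not called in WT larvae, and for none of those named next was the difference between genotypes called. The Pim-related kinase genes pimr103 and pimr102, members of a large family of near-identical copies, had log2 fold changes of 0.88 ± 0.14 (adjusted p = 1.3e-04) and 0.87 ± 0.15 (adjusted p = 4.7e-04). In pimr103 the CONVD mutants had 11.7, 9.90 and 9.53 CPM and the GF mutants 6.58, 4.49 and 6.04 CPM, while no WT library was above 0.868 CPM. The cartilage acidic protein gene crtac1a had 11.8, 13.3 and 10.8 CPM in CONVD mutants, against 7.57, 6.48 and 7.66 CPM in GF mutants (0.73 ± 0.11, adjusted p = 1.5e-04). The collagen chaperone gene serpinh1b had 24.3, 25.0 and 25.7 CPM in CONVD mutants, against 18.3, 18.6 and 17.9 CPM in GF mutants (0.45 ± 0.074, adjusted p = 3.3e-04), and the retinol-esterifying gene LRAT rose by 0.48 (adjusted p = 0.0025). These 5 calls held with each library left out. The inducible chaperone gene hsp70.3 (0.58, adjusted p = 0.015) lost its call in 4 of 6 such fits and in DESeq2 (adjusted p = 0.065). With serpinh1b it made up the 2 calls, both higher, among 35 heat shock and chaperone genes tested, beside 0.166% of all genes.

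Some of the largest falls came from groups of copies. The files hold several genes named otud4, and 3 of them and the loci si:dkeyp-3b12.8, si:dkeyp-3b12.9, si:dkeyp-3b12.11 and si:dkey-77p23.6 had called log2 fold changes between -0.97 and -0.63, and 2 pairs among them had counts within 5.08% of each other. Of these, si:dkeyp-3b12.8 held its call with each library left out (-0.78 ± 0.15, adjusted p = 0.0018), and the otud4 gene ENSDARG00000103468 (-0.93) kept it in 2 of 6 fits. In single pools of WT GF larvae that otud4 gene had 31.3, 7.98 and 4.88 CPM. The homeobox gene nkx3.3 (-0.86, adjusted p = 0.027) also kept its call in only 2 of the 6 fits, with adjusted p-values of 0.10 to 0.14 in the 4 that lost it.

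Signaling genes that the study names or that WT larvae lowered on colonization were not called in the mutants. The AP1 subunit fosl1a had 2.64, 2.29 and 2.28 CPM in CONVD mutants, against 1.74, 1.92 and 2.65 CPM in GF mutants (0.22 ± 0.22, adjusted p = 0.78). In WT larvae it had 2.48, 2.60 and 2.77 CPM when CONVD and 28.7, 29.8 and 25.8 CPM when GF (-3.41), and the difference between the responses was 3.62 ± 0.25 (adjusted p = 1.1e-10). Of 15 tested AP1 subunits, none was called in the mutants (median 0.04), beside 0.626% of all genes tested. In WT larvae 9 of them were called lower, beside 228 of all 22433 genes tested. The bZIP factor jdp2b had a mutant response of 0.17 (adjusted p = 0.73) and a WT response of -2.25.

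The C/EBP factor cebpb had 15.7, 17.3 and 13.3 CPM in CONVD mutants, against 15.9, 17.3 and 14.8 CPM in GF mutants (-0.05 ± 0.095, adjusted p = 0.92), and -1.72 in WT larvae, with a difference of 1.67 ± 0.17 (adjusted p = 2.6e-05). Its relative cebpd had 0.09 in mutants (adjusted p = 0.55) and -0.66 in WT larvae, where it was not called (adjusted p = 0.20), and the difference was not called in edgeR (adjusted p = 0.20). For myd88 itself the mutant change was 0.32 ± 0.17 (adjusted p = 0.50), with all 3 CONVD pools above the GF pools in counts, and the WT change was -1.07 (difference 1.38 ± 0.24, adjusted p = 7.6e-04). The NF-κB inhibitor nfkbiaa had -0.03 in mutants (adjusted p = 0.94). The cytokine suppressor socs3a, present as 2 genes, had 0.03 and -0.07, both with adjusted p-values over 0.9, and neither was called in WT larvae (-1.40 and -1.20, adjusted p = 0.14 for both) or for the difference (adjusted p = 0.16 and 0.44). The cytokine gene il1b had 24 counts over the CONVD mutants and 29 over the GF mutants (-0.30 ± 0.43, adjusted p = 0.86), and 4 further genes were too low to test: tlr2 with 14 counts over the CONVD mutants and 15 over the GF mutants, saa with 17 in CONVD and 14 in GF mutants, tnfa with 1 in CONVD and 2 in GF mutants, and il6 with 1 in CONVD and 4 in GF mutants. None of 37 immediate early genes and none of 25 TLR and Myd88 pathway genes was called in the mutants, beside 0.626% of all genes tested. At that share most lists of such size would hold no call. Of the 37, 3 passed the adjusted p with higher values in CONVD mutants, under the fold threshold. In WT larvae 14 of the 37 were called lower, beside 228 of all 22433 genes tested. The lists of suppressors of cytokine signaling, interferon response, antigen presentation, complement, unfolded protein response, p53 targets, cell division, glucose metabolism, hormones, lens crystallins, erythroid genes, sarcomere and collagens held no called gene in the mutants. Not all of these lists were without lower members. All CONVD libraries lay below all GF libraries in 13 of 42 glucose and 15 of 55 cell division genes, beside 9.04% of all genes tested. They lay above in 1 and 4, beside 7.44%. In the glucose list 5 members passed the adjusted p as lower and 1 as higher, all under the fold threshold.

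**Figure D4:**
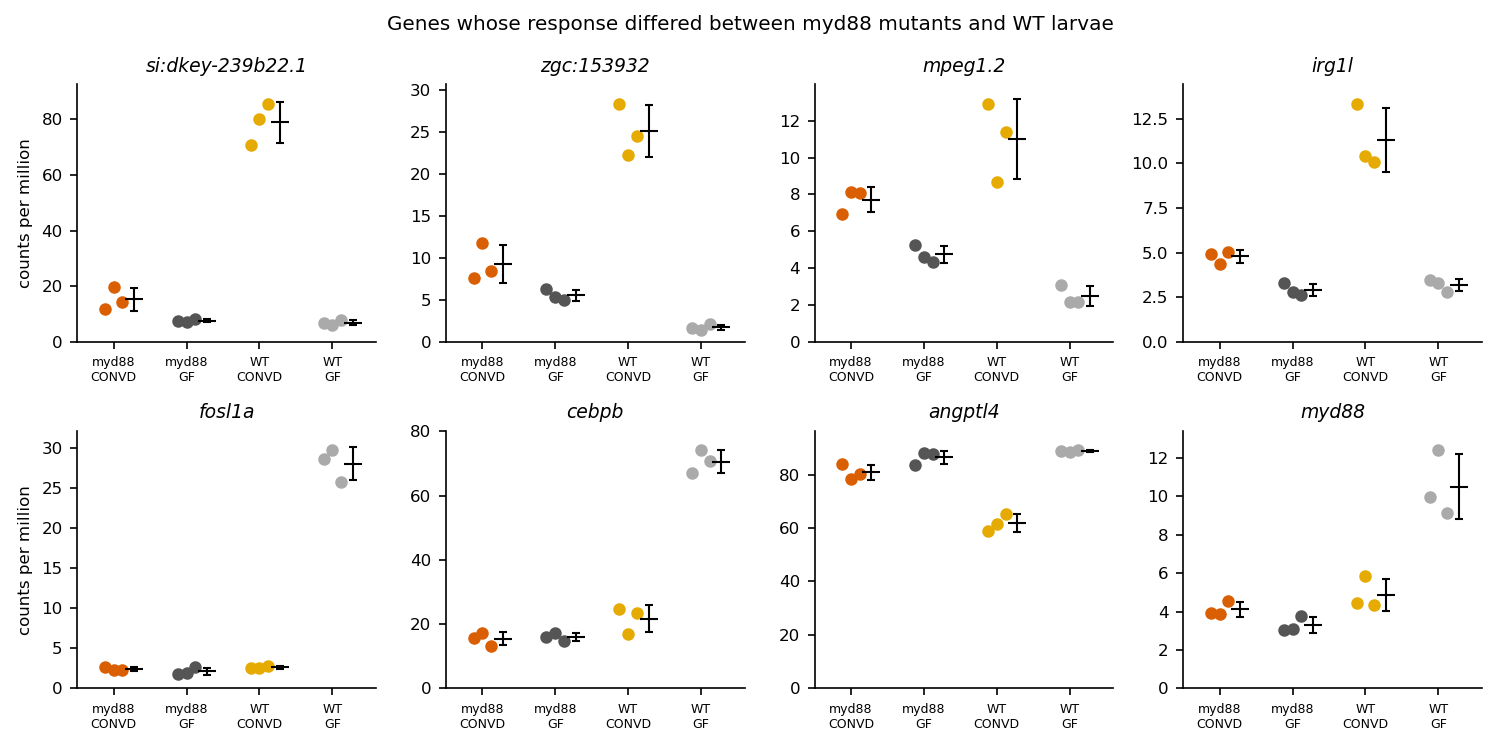
Levels of 8 genes in each library, in CPM on axes that start at 0, for CONVD and GF myd88 mutants and CONVD and GF WT larvae, each genotype scaled on its own. Bars show the mean and SD of 3 pools. The gene fosl1a lies between 1.74 and 2.65 CPM in all 6 mutant libraries, and between 25.8 and 29.8 CPM in the GF WT libraries.

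Set against WT larvae as a whole, the mutants shared few calls. In WT larvae 349 of 22433 genes were called (1.56%), 121 higher and 228 lower. Both genotypes called 12 genes, all in the same direction. They are 8.39% of the mutant calls, beside 1.56% of all genes called in WT larvae. They are 3.44% of the WT calls, beside 0.626% of all genes called in mutants. Of the 143 mutant calls, 139 were tested in WT larvae, where 83 of the falls were below 0 and 27 of the rises above 0. A call in 1 genotype alone does not show that the responses differed. The test of the difference between the responses called 237 of 23499 genes (1.01%), of which 203 had been called in WT larvae and 13 in the mutants. Of the 13, 8 were rises that were smaller in mutants than in WT larvae: the 2 zgc:153932 genes, si:dkey-239b22.1, si:dkey-247k7.2, si:ch211-226h7.3, si:ch211-226h7.2, mpeg1.2 and irg1l. In 3 genes, CR759879.1, kcna6a and PCDH20, the mutant rise stood against WT values below 0, with adjusted p-values for the difference of 0.048, 0.0080 and 0.027. Their rises in mutants kept the call in 3, 2 and 1 of the 6 fits that left out a library, and DESeq2 called none of these rises.

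The falls of the gut and lipid genes were not shown to be particular to the mutants. Of the 105 falls, only nr1d4b and its near-identical partner si:ch73-1m18.2 had a called difference from WT larvae. For nr1d4b the WT response was -0.22 and the difference -0.95 ± 0.17 (adjusted p = 0.0014). None of the 33 called genes of the 6 gut, lipid, bile and xenobiotic lists had one, the lowest adjusted p for the difference being 0.056 (cyp8b1). None of the 33 was called in WT larvae either, with a median WT response of -0.14 and 25 of 33 below 0. The WT GF pools were uneven for these genes: the enterocyte list summed to 2416, 2257 and 2320 CPM in WT CONVD pools and to 2186, 2192 and 2580 CPM in WT GF pools. For slc15a1b the WT GF pools had 26.5, 26.3 and 42.4 CPM. For abca1b, with a mutant change of -0.46 and a WT change of 0.16, the difference of -0.62 ± 0.18 had an adjusted p of 0.21 in edgeR and 0.0066 in DESeq2.

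**Figure D5:**
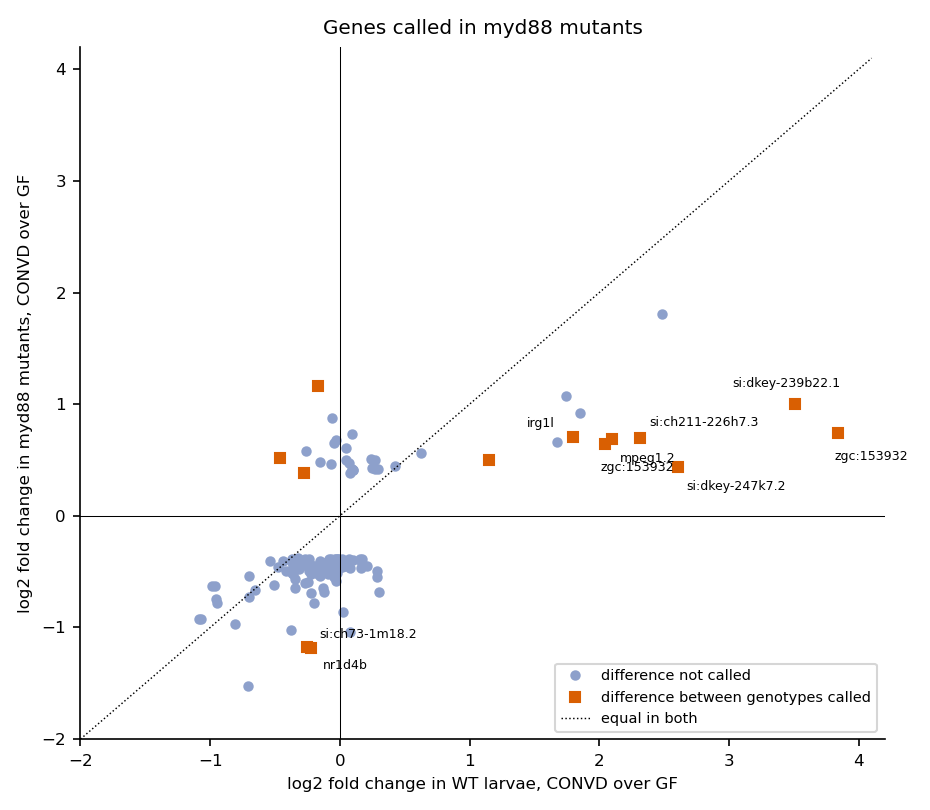
Log2 fold change (CONVD over GF) in WT larvae on the x axis and in myd88 mutants on the y axis, for the 139 genes called in mutants that were also tested in WT larvae. Orange squares mark a called difference between genotypes, and the dotted line marks equal responses. The falls form a band with WT values around a median of -0.14, and the shared rises lie below the dotted line.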

How the data were processed

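RNA was sequenced from whole larvae (1 read end of 50 bases) and, per the labels, aligned with Bowtie2. The study's methods name the Genetiles server and build GRCz10. The authors deposited 1 table per sample with read counts per Ensembl gene, and the deposited tables of the WT GF and mono-associated samples were given the unit of expected counts because an unnamed last line, left out here, is not whole. All gene values are whole. The column of total reads per gene was used. SAMtools and DESeq are also named in the processing notes, with no version.

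Counts were tested with edgeR 4.0.16 (R 4.3.3): genes with a count of at least 10 (total 15) by filterByExpr, TMM scaling, robust quasi-likelihood fits on the 6 mutant libraries, and Benjamini-Hochberg adjustment over all genes. A call needed an adjusted p under 0.05 and a fold of at least 1.3, as in the study. The 6 WT GF and CONVD libraries were fitted the same way, and the difference between responses on the 12 together. DESeq2 1.42.0 and the other alternatives are in the closing section. The scripts were tested on simulated data. In the simulated mutant comparison edgeR called 16 of 50 genes changed 1.3-fold and 33 of 50 changed 1.5-fold. For the simulated difference between genotypes it called 12 of 50 and 20 of 50. Many changes of this size would therefore be missed, and a gene not called is not shown to be unchanged.

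A rule gave the genes to name: the 12 largest rises and the 12 largest falls among calls with a mean log2 CPM of 1 or more and no overlap between groups, up to 4 called members of each list, genes the study names, and the 6 largest differences each way between genotypes. Not every gene given by the rule is described, and some of the largest rises and some list members are left out. Tissue markers, further list members, BX072532.1 and the genes of the other observations fall outside that rule and were chosen after their values were seen. The members and the 41 lists were chosen with earlier results of these data known. List symbols were matched by symbol (1107 of 1269), by a gene ID table (70) or by synonym (17), and 75 were not matched. Neighbors come from RefSeq on GRCz12tu, and current names from it or the gene ID table. Replicates are described as biological, but the sources do not say whether pools came from separate clutches, so the p-values reflect only pool-to-pool spread, which may be technical. Reads were counted without stated strand, so antisense partners cannot be told apart. One gene is not reported here.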

Additional observations from a re-analysis of the deposited data

Results flagged for a closer look

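The response of 25 genes named by the rule or called in the mutants differed between myd88 mutants and WT larvae by the test of the difference itself (edgeR, 12 libraries). Values are the log2 fold change in mutants minus that in WT larvae. The following genes had values below 0 in WT larvae and were not called in mutants: fosl1a (3.62), jdp2b (2.41), si:dkey-202l22.6 (2.30), si:dkey-79d12.5 (2.27), plek2 (2.25), ponzr4 (2.23), cebpb (1.67), myd88 (1.38) and angptl4 (0.42). The mutant values of fosl1a, jdp2b, ponzr4 and myd88 were above 0.

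WT larvae raised these genes more than mutants did: zgc:153932 (-3.11 and -1.40 for its 2 genes), si:ch211-39f2.3 (-2.66), si:dkey-239b22.1 (-2.51), si:dkey-247k7.2 (-2.18), si:ch211-207n23.2 (-1.82), si:ch211-226h7.3 (-1.62), mpeg1.2 (-1.41), irg1l (-1.10) and si:ch211-226h7.2 (-0.65). Of these, si:ch211-39f2.3 and si:ch211-207n23.2 were not called in mutants. The gene si:dkeyp-1h4.6 rose in WT larvae and had a negative, uncalled value in mutants (-0.28), a difference of -2.19.

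Mutants lowered nr1d4b (-0.95) and si:ch73-1m18.2 (-0.91) more than WT larvae did, and raised CR759879.1 (1.33), kcna6a (0.97) and PCDH20 (0.66), whose WT values were below 0. CR759879.1 and PCDH20 kept the called difference in 1 of the 6 fits that left out a mutant library, irg1l in 4, and the other 22 in all 6. On all 18 libraries angptl4 and irg1l lost the called difference, and in DESeq2 CR759879.1 and PCDH20 lost it. No explanation of these differences was tested.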

How the results depend on the processing

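The 143 mutant calls (38 higher and 105 lower in CONVD mutants) kept their direction under all alternatives run, and what changed was how many passed. These alternatives reuse the same mutant libraries, so they do not test the direction separately. With WT libraries in the fit, 18 genes were called on all 18 libraries (8 higher, 10 lower) and 44 on 12 libraries (16 higher, 28 lower). DESeq2 called 97, of which 18 were higher. With no fold threshold 457 were called (123 higher, 334 lower), and at 2-fold 11 (4 higher, 7 lower). Leaving out 1 library gave 97 to 211 calls, 24 to 75 of them higher and 63 to 136 lower. RLE size factors (142 calls) and no filter on low counts (171) stayed within 1.5 times. The cause of these shifts was not tested. The difference between genotypes was called for 237 genes, 65 of them with the lower value in mutants. That 65 was 39 on 18 libraries and 40 to 60 with a library left out, when the total was 181 to 218 and the genes with the higher value in mutants were 141 to 167.

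Replicate numbers showed no clear pairing of the pools: deviations from the group means of same-numbered mutant pools correlated at 0.02, 0.04 and -0.00. Pools of different numbers correlated at -0.05 to 0.03. These correlations run over all genes tested, low counts included, so they cannot exclude pairing. With the number as a replicate block 181 genes were called (52 higher, 129 lower) in mutants, and the difference had 319 calls, 107 of them with the lower value in mutants.

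The cytokine genes tnfa and il6 had 1 and 1 counts over the CONVD mutants and 2 and 4 over the GF mutants, and were not tested.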

Other observations

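The following 4 falls were picked out after their values were seen, from no list, and stand as single genes. The enamel-type matrix gene odam had 0.824, 0.381 and 0.978 CPM in CONVD mutants, against 3.29, 2.05 and 1.47 CPM in GF mutants (-1.68 ± 0.34, adjusted p = 0.0041). Its neighbor si:dkey-22i16.7 had 0.330, 0.508 and 0.733 CPM in CONVD mutants, against 2.55, 1.15 and 1.77 CPM in GF mutants (-1.86 ± 0.36, adjusted p = 0.0022). The matrix gene scpp5 (-0.63, adjusted p = 0.012) and entpd5a, which zebrafish need for bone mineral (-0.52, adjusted p = 0.046), also fell, and each kept its call in 2 of the 6 fits that left out a library. The odam call was kept in 5 of these fits and that of si:dkey-22i16.7 in 6.

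Photoreceptor genes leaned the other way. Of 40 tested, 11 were below 0, the median was 0.07, and all CONVD libraries lay above all GF libraries in 13 and below them in 2, beside 7.44% and 9.04% of all genes tested. Their summed level was 9430 to 9930 CPM in CONVD mutants and 8680 to 9130 CPM in GF mutants. The rhodopsin gene rho had 1245, 1167 and 1241 CPM in CONVD mutants, against 1147, 1068 and 1062 CPM in GF mutants (0.16, adjusted p = 0.012), and the cone arrestin genes arr3a (0.34) and arr3b (0.28) also passed the adjusted p under the fold threshold. The cone channel gene cngb3 was called higher (0.48, adjusted p = 0.032), and guca1a (-0.64, adjusted p = 0.025) and PDE6H (-0.62, adjusted p = 0.016) were called lower. Each of these 3 calls was lost in at least 3 of the 6 fits that left out a library. The heme-binding family gene soul5 had 46.4, 44.5 and 42.8 CPM in CONVD mutants, against 33.1, 30.9 and 30.6 CPM in GF mutants (0.50 ± 0.060, adjusted p = 2.8e-06).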
